A study of Mus musculus with 8 samples.

Results

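The expression of 10 genes of fatty acid synthesis, elongation, and desaturation was followed in mouse embryonic stem cells (ESCs) during the transition from serum to 2i. The genes were Srebf1, Acly, Acaca, Fasn, Elovl6, Elovl5, Scd1, Scd2, Fads1, and Fads2. They were taken by symbol, matched through GENCODE M21, from the 37263 identifiers in the count tables, and all 10 passed the filter on low counts. E14 cells, a 129/Ola line grown without feeders, were moved from medium with fetal calf serum and LIF to serum-free NDiff 227 with LIF, the MEK inhibitor PD0325901, and the GSK3 inhibitor CHIR99021, which together are called 2i. RNA was taken at 4, 16, 24, and 32 hr, from cells in 2i alone or in 2i with 17 µM vitamin C (vitC). Each of the 8 combinations had 1 library, and all cells were the same line and had the same change of medium. No library from serum enters these comparisons, so 4 hr in 2i was the earliest state.

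The cell builds fatty acids from citrate. ATP citrate lyase cuts citrate to acetyl-CoA, acetyl-CoA carboxylase turns this into malonyl-CoA, and fatty acid synthase joins both into palmitate. Elongases of the ELOVL family lengthen the chain, stearoyl-CoA desaturases place a double bond in saturated chains, and the FADS enzymes make polyunsaturated chains from the essential fatty acids. SREBP-1, the product of Srebf1, is a transcription factor that is held in the endoplasmic reticulum and is cut and sent to the nucleus when cells need lipid; most genes of the pathway are known as its targets. Serum brings lipoproteins and albumin-bound fatty acids to cultured cells.

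The libraries held 4753528 to 18434932 reads counted in genes, so that 3 counts, the limit that a count of 0 allows, came to 0.163 to 0.631 CPM, the counts scaled to a common library total. All 8 ESC markers examined were present, and their summed level was 1755 to 1790 CPM at 4 hr and 1884 to 2273 CPM later. From 4 to 24 hr Utf1 and Pou5f1 fell (log2 fold change -3.11 and -0.68, edgeR adjusted p = 0.00013 and 0.0047), and Tfcp2l1, Sox2, and Esrrb rose (1.08, 1.03, and 0.60, edgeR adjusted p = 0.00069, 0.00080, and 0.018). Of the adipocyte markers, 0 of 6 reached 1 CPM in 2 libraries, with Adipoq and Cfd at 0 everywhere. Of the hepatocyte markers, 0 of 5 did so, with Alb, Ttr, Serpina1a, and Cyp3a11 at 0 everywhere. Fibroblast markers summed to 95.4 to 115 CPM at 4 hr and 259 to 667 CPM later, most of it Col1a1 and Col1a2, while Lum stayed at or below 0.429 CPM. Col1a1 and Col1a2 were called higher from 4 to 24 hr (2.35 and 2.25, edgeR adjusted p = 0.00020 and 2.1e-05). Col3a1, Thy1, and Dcn were not called from 4 to 24 hr (0.10, -0.06, and 0.67, edgeR adjusted p = 0.89, 0.94, and 0.49). Primitive endoderm markers summed to 8.66 to 10.6 CPM at 4 hr and 13.1 to 26.2 CPM later, and trophoblast markers to 28.3 to 35.7 CPM and 17.1 to 29.2 CPM. Of the endoderm markers, Dab2 had the highest level (5.47 to 19.7 CPM) and was called higher at 24 hr (1.25, edgeR adjusted p = 0.0095). Sox17, Gata6, and Gata4 were not called (2.67, 0.32, and -0.26, edgeR adjusted p = 0.062, 0.80, and 0.80). Of the trophoblast markers, Cdx2 and Eomes were called lower at 24 hr (-1.91 and -1.35, edgeR adjusted p = 0.0042 and 0.037). Gata3 and Krt7 were not called (1.13 and -0.35, edgeR adjusted p = 0.31 and 0.56). The reads on 3 abundant features (Lars2, Gm23935, and the unnamed ENSMUSG00000093077) took 0.0113% and 0.0277% of the counts at 4 hr and 0.206% to 7.11% later. These values moved with time, and their part in the results below was not tested, except that the share of the 3 features was also set in the model. In bulk RNA, fewer cells of a type and less RNA per cell cannot be told apart.

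Of the 10 genes, 9 rose between 4 and 24 hr, from 1.39-fold for Acaca to 5.66-fold for Scd1. Over both treatments, their log2 ratios at 16 hr, on another lane, were 78.7% to 137% of those at 24 hr. In the additive model of time and treatment on all 8 libraries, 9 of the 10 genes were higher at 24 hr than at 4 hr, and 0 were lower (threshold of 0.05 on the edgeR p-value, which was adjusted by Benjamini and Hochberg's method over all 14931 genes tested). Of all genes tested, 11.5% were called higher and 8.98% lower, 20.5% in all. The median log2 fold change was 0.95 over the 10 genes and 0.01 over all genes. The genes were selected on function and symbol, with the expression values of these 8 libraries already in view, so the counts are a description. With 1 library per combination, the error is the departure of the libraries from additivity, on 3 residual degrees of freedom per gene. No separate cultures stand behind it. The edgeR fit also shares the estimate of spread across all genes tested, and the small p-values rest on that sharing as well. When the log2 share of the 3 abundant features was added to the model, 0 of the 10 genes and 0 of all genes passed in edgeR, and 6 of the 10 had an unadjusted p under 0.05. In 2i that share was 0.0277% at 4 hr and 5.92% at 24 hr, and with vitC 0.0113% and 6.37%. It moved with the 2 times compared, so the lost calls cannot separate the share from time. The log2 fold changes in that model were 2.47 for Scd1, 2.45 for Fads2, 1.77 for Fads1, 1.25 for Elovl6, 1.19 for Scd2, 0.69 for Acly, and 0.54 for Srebf1, close to or above those without the covariate, and 0.35 for Fasn and 0.26 for Acaca, which were smaller. All 6 later libraries lay above both 4 hr libraries for 9 of the 10 genes, the exception being Elovl5, which also was the gene that was not called. This was so for 18.7% of all genes tested.

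**Figure D1:**
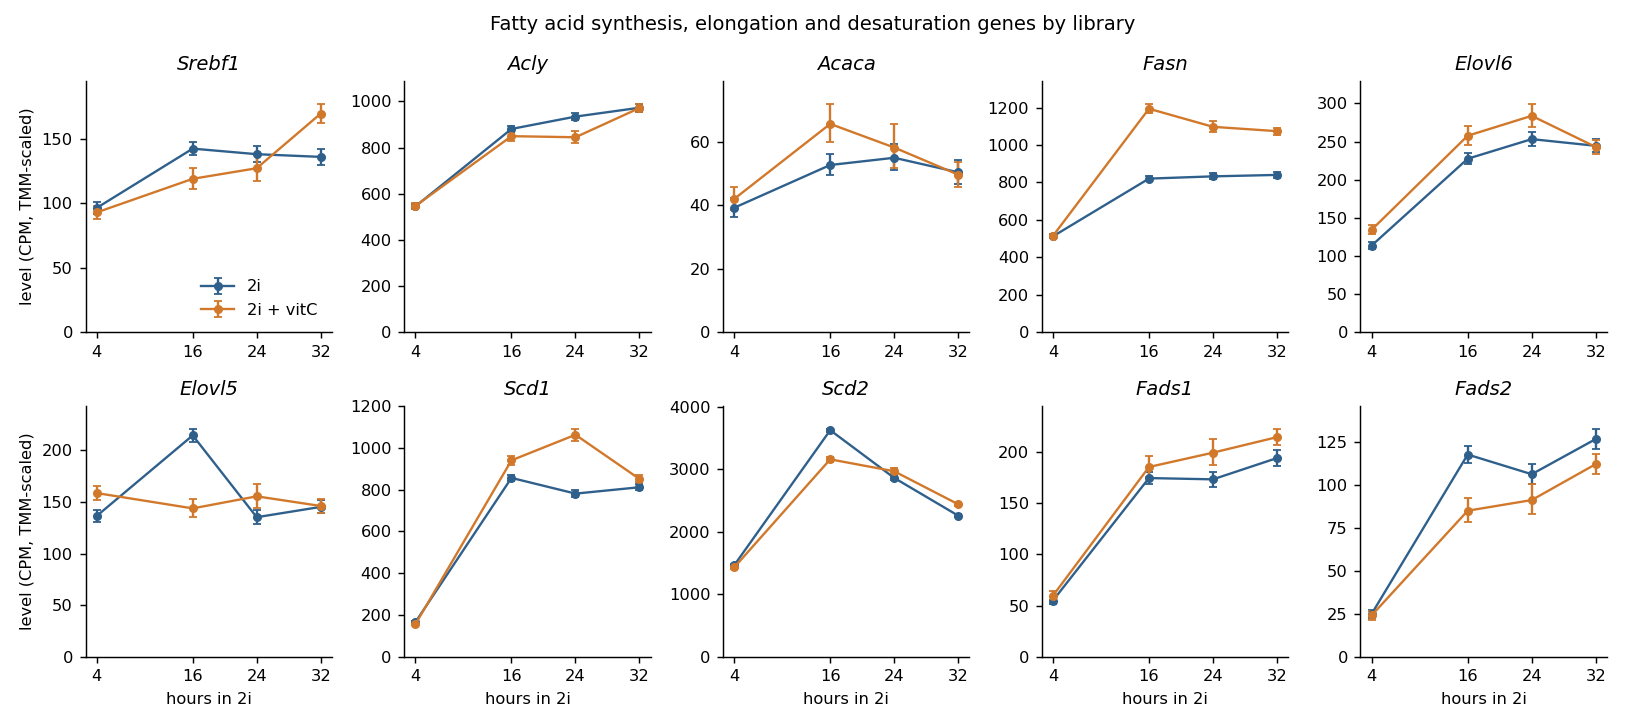
Level of each of the 10 genes (CPM scaled by TMM, y axis from 0) against hours in 2i, with 2i in blue and 2i with vitC in orange. Points are single libraries and bars are Wilson 95% intervals that cover counting error only; in 9 panels the 4 hr points are the lowest, and Elovl5 differs by its single high point at 16 hr in 2i.

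Srebf1, the transcription factor of the pathway (ENSMUSG00000020538, chromosome 11, 60199089 to 60222581, minus strand, GRCm38), had the second smallest change of the 9 called genes. Its level in 2i was 96.5 CPM at 4 hr, 143 CPM at 16 hr, 138 CPM at 24 hr, and 136 CPM at 32 hr. With vitC it was 93.0, 119, 127, and 170 CPM at the same times. All later libraries were above the 4 hr pair, and the treatments changed order between 24 and 32 hr. The log2 fold change from 4 to 24 hr was 0.49 (SE 0.16, edgeR adjusted p = 0.044), which failed the threshold in 8 of 20 alternatives, among them those without either 4 hr or either 24 hr library (edgeR adjusted p = 0.12 to 0.23). Exons of Srebf1 overlap those of Rai1 on the other strand, so reads of both cannot be told apart if strand was not used. Rai1 had 13.4 and 13.5 CPM at 4 hr and 20.4 to 36.0 CPM later, below Srebf1 in every library.

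The 3 enzymes that carry citrate to palmitate rose by different amounts. Acly, ATP citrate lyase (ENSMUSG00000020917, chromosome 11, 100476353 to 100528000, minus strand), had 545, 881, 934, and 972 CPM at 4, 16, 24, and 32 hr in 2i, and 547, 849, 845, and 971 CPM with vitC. The treatments were within 0.15 log2 units of each other at all 4 times. Its log2 fold change at 24 hr was 0.70 (SE 0.13, edgeR adjusted p = 0.0039), or 1.63-fold. Fasn, fatty acid synthase (ENSMUSG00000025153, chromosome 11, 120805846 to 120824547, minus strand), had 512, 820, 832, and 840 CPM in 2i and 514, 1194, 1097, and 1074 CPM with vitC. Both treatments started level, and the 3 later vitC libraries lay above the 3 later 2i libraries. Its log2 fold change at 24 hr was 0.89 (SE 0.15, edgeR adjusted p = 0.0023), or 1.85-fold, and without the vitC 4 hr library it was 0.68 (edgeR adjusted p = 0.054). Acaca, acetyl-CoA carboxylase 1 (ENSMUSG00000020532, chromosome 11, 84129672 to 84401651, plus strand), had 39.2, 52.6, 54.9, and 50.3 CPM in 2i and 41.9, 65.6, 58.1, and 49.6 CPM with vitC. It was lowest at 4 hr, and the later libraries were close to each other. The log2 fold change of Acaca was 0.48 (SE 0.15, edgeR adjusted p = 0.044). It lost its call in 13 of 20 alternatives, including DESeq2 (adjusted p = 0.056), and stood at 0.15 once GC content and length were corrected for (edgeR adjusted p = 0.51). These included the fits without either 4 hr, either 24 hr, or either 32 hr library.

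The elongases parted. Elovl6, which lengthens palmitate to stearate (ENSMUSG00000041220, chromosome 3, 129532355 to 129638495, plus strand), had 114, 227, 253, and 244 CPM in 2i and 134, 258, 284, and 243 CPM with vitC. All later libraries lay above both 4 hr libraries. Its log2 fold change at 24 hr was 1.12 (SE 0.14, edgeR adjusted p = 0.00031), or 2.17-fold. Elovl5, which lengthens polyunsaturated chains (ENSMUSG00000032349, chromosome 9, 77917364 to 77984519, plus strand), had 136, 215, 135, and 145 CPM in 2i and 159, 144, 155, and 146 CPM with vitC. The 2i library of 16 hr stood apart from the other 7, which spanned 135 to 159 CPM. Its log2 fold change at 24 hr was -0.02 (SE 0.18, edgeR adjusted p = 0.94), and its sign turned in 4 of 20 alternatives. The Pearson correlation of a gene's log2 CPM with the mean of the 10 genes over the 8 libraries was 0.21 for Elovl5 and 0.85 to 0.996 for the others, a description in which each gene is part of the mean.

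Promoters were examined to see what these genes share in sequence. A promoter was found for 7 of the 10 genes in the RefSeq set of GRCm38.p6, a build other than the mm9 of the count tables: Srebf1, Acly, Acaca, Fasn, Elovl6, Elovl5, and Fads2. These gave 9 windows, since Srebf1 has 3 annotated starts. The 250 bases before the annotated start are printed for Acly and Fasn, which were called higher, and for Elovl5, which was not, in lower case with every match to 4 motifs in capitals, on either strand. The motifs were the sterol regulatory element TCACNCCAC, to which SREBPs bind, the E-box CACGTG, the CCAAT box CCAAT, and the GC box GGGCGG. Windows and sequences are given on the strand of the gene.
Acly, chr11:100528001-100528250, minus strand: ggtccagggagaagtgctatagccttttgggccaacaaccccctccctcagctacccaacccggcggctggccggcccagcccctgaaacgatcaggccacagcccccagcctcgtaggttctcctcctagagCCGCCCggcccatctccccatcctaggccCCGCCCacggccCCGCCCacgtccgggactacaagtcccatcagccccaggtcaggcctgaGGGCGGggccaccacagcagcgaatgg
Fasn, chr11:120824548-120824797, minus strand: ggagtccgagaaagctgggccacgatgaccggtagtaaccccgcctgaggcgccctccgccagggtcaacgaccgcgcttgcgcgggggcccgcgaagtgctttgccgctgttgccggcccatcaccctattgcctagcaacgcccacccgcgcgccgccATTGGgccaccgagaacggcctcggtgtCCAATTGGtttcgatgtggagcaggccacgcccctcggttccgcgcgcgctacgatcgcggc
Elovl5, chr9:77917115-77917364, plus strand: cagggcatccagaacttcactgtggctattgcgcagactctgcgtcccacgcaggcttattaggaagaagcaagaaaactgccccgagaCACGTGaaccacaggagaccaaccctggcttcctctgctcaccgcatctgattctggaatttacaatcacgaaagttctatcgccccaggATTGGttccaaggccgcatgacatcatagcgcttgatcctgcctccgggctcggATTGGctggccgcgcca
The capitals mark 4 GC boxes in Acly, 3 CCAAT boxes in Fasn, where the last 2 overlap as CCAATTGG, and 1 E-box and 2 CCAAT boxes in Elovl5. The window of Acaca, chr11:84195188-84195437, lay inside the gene as placed above, with 0 CpG and 39.2% GC. The medians of all promoters were 6 CpG and 52.4% GC, so this window may not be the main promoter. The sterol regulatory element was in 0 of the 9 windows and in 1.05% of all 32851 promoters, and 0 of 9 is close to that share. The E-box was in 1 of 9 windows and 6.02% of all promoters, the CCAAT box in 4 of 9 (those of Fasn, Elovl5, and Srebf1) and 33.8% of all, and the GC box in 4 of 9 (those of Acly, Fads2, and Srebf1) and 32.7% of all. These are matches of letters within a short window, and a gene without a match may hold one elsewhere or in a variant spelling. The called genes Acly and Fasn had no motif in common in these windows, and Elovl5 shared the CCAAT box with Fasn.

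The stearoyl-CoA desaturases gave the largest rise and the highest level of the 10 genes. Scd1 (ENSMUSG00000037071, chromosome 19, 44394455 to 44407879, minus strand) had 166 CPM at 4 hr in 2i, then 856, 781, and 811 CPM at 16, 24, and 32 hr. With vitC it had 156, 940, 1062, and 851 CPM. The gap between the 4 hr pair and the later libraries was more than 4-fold in both treatments, and the later libraries showed no common further rise. The log2 ratio to 4 hr was 2.37, 2.23, and 2.29 in 2i and 2.59, 2.76, and 2.44 with vitC. In the model the log2 fold change at 24 hr was 2.50 (SE 0.16, edgeR adjusted p = 9.0e-06), or 5.66-fold. Scd2 (ENSMUSG00000025203, chromosome 19, 44293674 to 44306864, plus strand), the form found widely outside liver and fat, had 1464, 3627, 2863, and 2259 CPM in 2i and 1431, 3160, 2969, and 2441 CPM with vitC. It was highest at 16 hr and lower at each later time, in both treatments, and stayed above its 4 hr level. Its log2 fold change at 24 hr was 1.01 (SE 0.15, edgeR adjusted p = 0.00086). The 2 genes are close paralogs, so some reads may be shared between them.

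The fatty acid desaturases of the FADS cluster rose to a similar degree. Fads1, the delta-5 desaturase (ENSMUSG00000010663, chromosome 19, 10182888 to 10196877, plus strand), had 54.9, 175, 173, and 194 CPM in 2i and 59.7, 185, 199, and 215 CPM with vitC. Its log2 fold change at 24 hr was 1.70 (SE 0.13, edgeR adjusted p = 1.8e-05), or 3.25-fold. Fads2, the delta-6 desaturase (ENSMUSG00000024665, chromosome 19, 10062765 to 10101746, minus strand), had 25.1, 118, 106, and 127 CPM in 2i and 24.2, 85.2, 91.4, and 112 CPM with vitC. Both genes were lowest at 4 hr by a wide margin and highest at 32 hr in both treatments. As close paralogs they may share some reads. The log2 fold change of Fads2 at 24 hr was 2.00 (SE 0.15, edgeR adjusted p = 1.5e-05), or 4.00-fold. The desaturases Scd1, Fads2, and Fads1 had the 3 largest changes of the 10 genes, ahead of Elovl6, Scd2, Fasn, Acly, Srebf1, and Acaca.

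**Figure D2:**
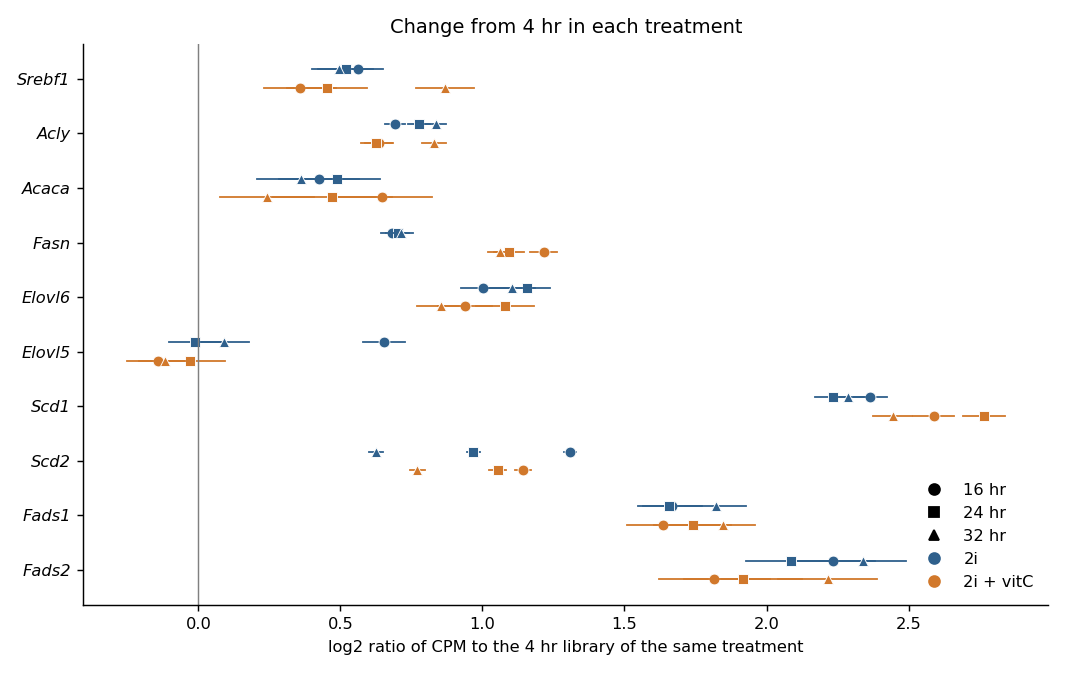
Log2 ratio of CPM to the 4 hr library of the same treatment (x axis) for each gene, at 16 hr (circles), 24 hr (squares), and 32 hr (triangles), in 2i (blue) and with vitC (orange). Bars are 95% intervals of counting error; the points of Scd1, Fads1, and Fads2 lie beyond 1.5 and those of Elovl5 lie around 0 apart from 0.65 at 16 hr in 2i.

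The 16 hr libraries were sequenced on another lane than the 4 hr libraries, as were those of 32 hr, so their ratios are given without a test. The log2 ratio at 16 hr was 86.6% to 135% of that at 24 hr in 2i, and 78.7% to 137% with vitC, for the 9 genes that were called. The comparison of 32 hr with 16 hr, which shared a lane, called 0 of the 10 genes, where 0.583% of all genes were called in edgeR, 0.335% higher and 0.248% lower. Their log2 fold changes ran from -0.53 to 0.24, and 1 had an unadjusted p under 0.05. This was Scd2, with a log2 fold change of -0.53 (SE 0.15, edgeR adjusted p = 0.13), lower at 32 hr in both treatments with log2 ratios of -0.68 in 2i and -0.37 with vitC. DESeq2 called Scd2 lower (adjusted p = 0.020), as did edgeR without the filter on low counts (adjusted p = 0.013).

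Levels were compared between genes as reads per kilobase of merged exon, on the same library scale as CPM (RPKM). At 4 hr, Scd2 was the highest with a mean of 265 RPKM, followed by Acly with 103, Fasn with 46.9, Elovl5 with 41.9, and Scd1 with 33.0 RPKM. Elovl6 had 19.3, Srebf1 16.8, Fads1 11.9, Fads2 7.47, and Acaca 2.37 RPKM. In the 6 later libraries Scd2 had a mean of 528 RPKM. Scd1 had a mean of 181 RPKM (160 to 217), a range that overlapped that of Acly (160.0 to 184 RPKM). Scd1 was above Acly in 3 of the 6 later libraries, those of 16 hr and the vitC library of 24 hr, and below it in the other 3. The ranges of Fads1 (36.0 to 44.6 RPKM) and Elovl6 (35.4 to 44.1 RPKM) overlapped as well, and that of Elovl5 (38.4 to 60.9 RPKM) overlapped both. The merged exon length of Acaca covers all its annotated transcripts, so its RPKM may be low for that reason alone.

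Within a library, these genes took 0.311% and 0.322% of the counts at 4 hr and 0.572% to 0.734% later, and Scd2 alone was 38.9% to 51.0% of that. The share of Scd1 in the summed RPKM of Scd1 and Scd2 was 11.2% and 10.9% at 4 hr and 20.9% to 28.6% later. Elovl6 went from 31.3% and 31.7% of the Elovl5 and Elovl6 sum to 36.7% at 16 hr in 2i and 47.7% to 50.6% in the other later libraries. The share of Srebf1 in the sum with Srebf2, which encodes the factor better known for sterol synthesis, was 48.8% and 49.7% at 4 hr and 33.4% to 42.6% later. For these 3 pairs the 4 hr libraries did not overlap the later ones, which restates the levels given above. Of all single genes tested, 18.7% had all 6 later libraries above both 4 hr libraries, and 19.0% had them below. No such share was worked out for pairs of genes. The share of Fads2 in the sum with Fads1 was 40.0% at 4 hr in 2i and 47.3% to 49.6% later, against 37.2% and 40.1% to 43.3% with vitC.

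**Figure D3:**
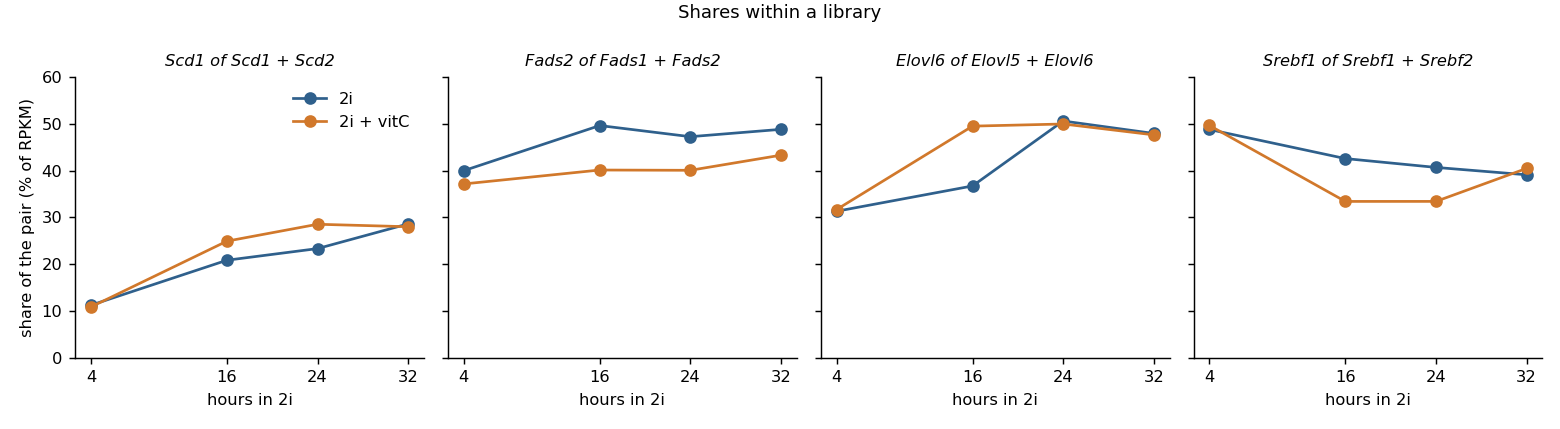
Share of a gene in the summed RPKM of a pair (y axis, percent) against hours in 2i, in 2i (blue) and with vitC (orange), 1 library per point. The shares of Scd1 and Elovl6 are higher and that of Srebf1 is lower in every later library than at 4 hr, and the share of Fads2 is lower with vitC at each time.

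The comparison of 2i with and without vitC asks whether ascorbate, a cofactor of dioxygenases such as the TET enzymes, moved these genes. With time as a block, 0 of the 10 genes were called, and 2 had an unadjusted p under 0.05 in edgeR; of all genes 0.167% were called, 0.107% higher and 0.0603% lower. Fasn had a log2 fold change with vitC of 0.33 (SE 0.11, edgeR adjusted p = 0.20), with log2 ratios of 0.01, 0.54, 0.40, and 0.35 at 4, 16, 24, and 32 hr. Fads2 had a log2 fold change of -0.23 (SE 0.10, edgeR adjusted p = 0.34), with log2 ratios of -0.05, -0.47, -0.22, and -0.18. Fasn was thus higher at 4 of 4 times, by a margin near 0 at 4 hr, and Fads2 was lower at 4 of 4. Fads1 was also higher at 4 of 4 times (log2 fold change 0.14, SE 0.09, edgeR adjusted p = 0.55), so that the neighbours of the FADS cluster lay on opposite sides. Of all genes, 11.0% were higher and 10.8% lower at all 4 times. The other 7 genes had log2 fold changes from -0.05 to 0.14. The share of the 3 abundant features was higher with vitC at 16, 24, and 32 hr and lower at 4 hr, and with that share in the model the value for Fasn was 0.21 (edgeR adjusted p = 0.61).

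**Figure D4:**
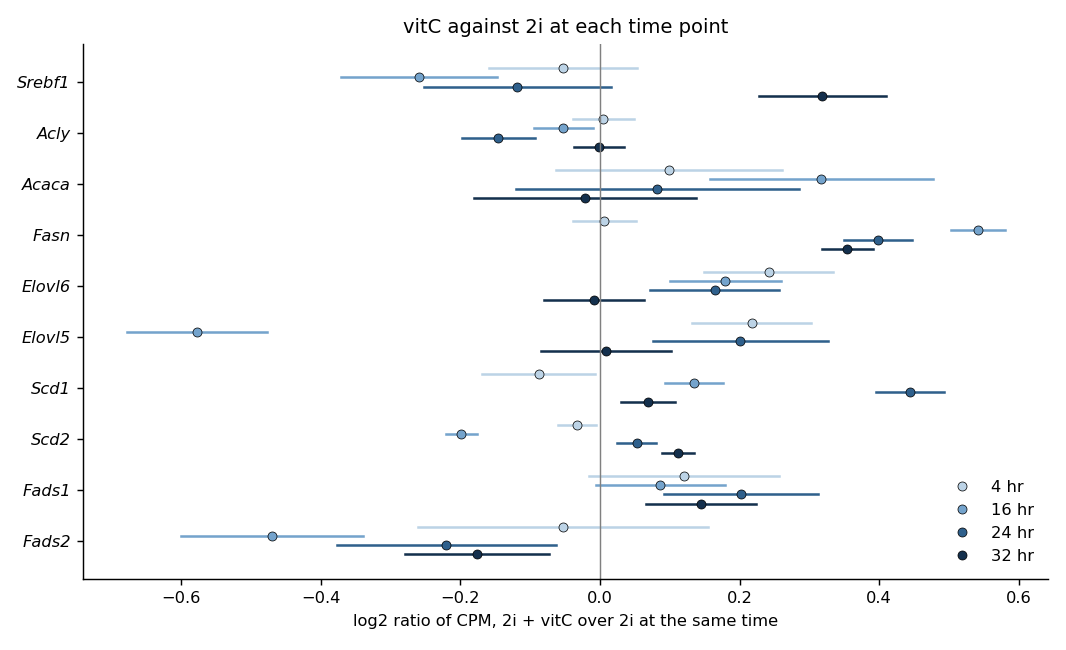
Log2 ratio of CPM in 2i with vitC over 2i at the same time (x axis) for each gene, 1 pair of libraries per point, from light (4 hr) to dark (32 hr). Bars are 95% intervals of counting error; Fasn lies to the right of 0 and Fads2 to the left at 16, 24, and 32 hr, and the 16 hr point of Elovl5 lies at -0.58.

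Whether the vitC effect changed with hours was tested as a linear term. It called 0 of the 10 genes and 0.0% of all genes (431 of 14931 had an unadjusted p under 0.05 in edgeR), and the smallest unadjusted p among the 10 genes was 0.31. This model left 2 residual degrees of freedom per gene, with the spread again shared across genes.

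The genes around the pathway were described in the same comparison of 24 hr with 4 hr, in which 11.5% of all genes were called higher and 8.98% lower, with a median of 0.01. Of 6 genes, Srebf2 and the 5 whose products hold, escort, or cut the SREBP precursors, 3 were higher and 0 lower, with a median log2 fold change of 0.64. These were Srebf2 (1.20, SE 0.15, edgeR adjusted p = 0.00032), the site-2 protease gene Mbtps2 (0.89, SE 0.19, adjusted p = 0.0070), and Insig1 (0.91, SE 0.19, adjusted p = 0.0059), which retains SREBPs and is itself known as their target. Scap, the escort of the precursors, had -0.20, the site-1 protease gene Mbtps1 had 0.16, and Insig2 had 0.39, and these 3 did not pass. Of 10 genes of the supply, turnover, or regulation of acetyl-CoA, malonyl-CoA, or NADPH, 5 were higher and 0 lower (median 0.60). Among the 5 was Acss2, which makes acetyl-CoA from acetate (log2 fold change 1.49, SE 0.23, edgeR adjusted p = 0.0013). Another was Thrsp, with a wide error (2.69, SE 0.77, edgeR adjusted p = 0.028), which fell outside the naming rule given below. The rest were Idh1, Pgd, and Slc25a1 (1.28, 0.96, and 0.90, edgeR adjusted p = 0.00013, 0.011, and 0.0015). In the sterol branch 12 of 19 genes tested were higher and 0 lower (median 0.72), with Dhcr7 of the last step at 1.85 (SE 0.21, edgeR adjusted p = 0.00018).

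The list of elongation and desaturation partners also held further elongase and desaturase genes. Its genes were called at shares near those of all genes (11.5% higher and 8.98% lower). Of 15 tested of 17 listed, 2 were higher and 1 lower (median -0.02). Of the further elongase and desaturase genes, Elovl7 was higher (log2 fold change 0.83, SE 0.25, edgeR adjusted p = 0.033). Elovl2, Fads3, Elovl1, Scd3, and Elovl4 were not called (0.61, 0.52, 0.19, -0.44, and -0.87, edgeR adjusted p = 0.18, 0.37, 0.51, 0.59, and 0.054). Tecr, the reductase of the last step of elongation, rose by a log2 fold change of 0.99 (SE 0.16, edgeR adjusted p = 0.0017), and Cyb5a, the cytochrome b5 that passes electrons to the desaturases, fell, with a log2 fold change of -0.81 (SE 0.17, edgeR adjusted p = 0.0069). Among 17 acyl-CoA synthetase and glycerolipid genes 4 were higher and 4 lower (median 0.01), beside the same shares of all genes. Acsl4, with a preference for arachidonate, was higher (1.16, SE 0.15, edgeR adjusted p = 0.00052) and Acsl5 lower (-0.71, SE 0.15, edgeR adjusted p = 0.0076). With vitC, 0 genes were called in each of these lists in edgeR.

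**Figure D5:**
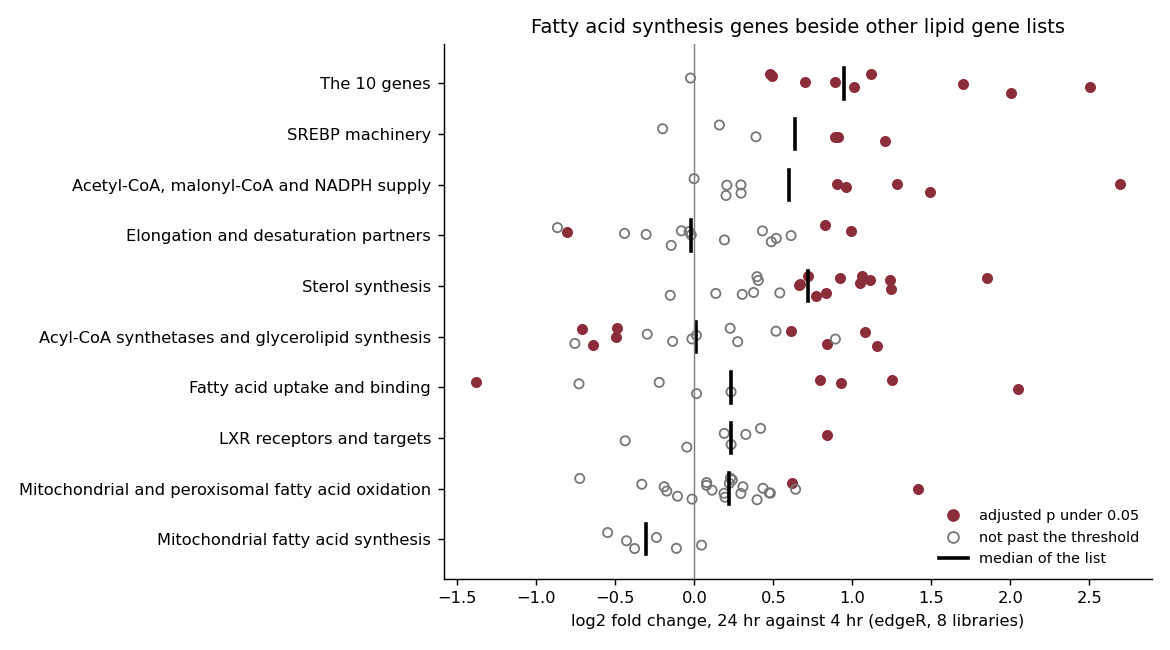
Log2 fold change of 24 hr against 4 hr (x axis, edgeR on 8 libraries) for the 10 genes and for 9 lists of lipid genes, with filled points past the threshold, open points not past it, and a bar at each list's median. The median is 0.95 for the 10 genes, 0.72 for sterol synthesis, and between -0.31 and 0.64 for the other lists.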

How the data were processed

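RNA-seq of rRNA-depleted total RNA from 8 libraries was used. The authors deposited whole-number read counts per gene. Per the labels, reads were aligned with GSNAP to NCBIM37 (mm9) and counted with HTSeq; the annotation release and the strand setting are not given in the sources used here. Of 37263 identifiers, 32604 matched GENCODE M21 (GRCm38), which gave symbols, positions, and exon lengths; they were counted on another build.

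Counts were analysed in edgeR 4.0.16 (R 4.3.3) with TMM scaling, keeping genes that reached 1 CPM in 2 or more libraries, by the quasi-likelihood F-test and the Benjamini-Hochberg procedure with a threshold of 0.05. Models held time and treatment. The linear term of hours by treatment was a separate model. CPM were divided by TMM-scaled totals, with Wilson 95% intervals for counting error only. File names place 4 and 24 hr on one lane and 16 and 32 hr on another; so 4 hr was tested against 24 hr and 16 hr against 32 hr. Genes outside the 10 were named by rule: the genes of the SREBP list, in each other list the largest called rise and fall (mean of 5 CPM or more, direction shared by the treatments), and the 5 genes most like the mean of the 10. Thrsp, Idh1, Pgd, Slc25a1, and the tested elongase and desaturase genes outside the 10 were named in addition to this rule. The genes and lists were chosen with earlier results of these data known. The results were recomputed with DESeq2 1.42.0, with RLE factors or library totals, with other filters, with thinning to 4753528 counts, the 3 abundant features removed or as a covariate, a GC and length correction, no treatment term or no time block, and each library or time left out. The fits were tested on simulated data. Sequences came from RefSeq (GRCm38.p6).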

Additional observations from a re-analysis of the deposited data

Results flagged for a closer look

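Relative to the 4 hr library of the same treatment, Elovl5 had log2 ratios of opposite sign in the treatments at 2 times. At 16 hr its log2 ratio to 4 hr was 0.65 in 2i (95% interval of counting error 0.58 to 0.73) and -0.14 with vitC (-0.25 to -0.03). At 32 hr it was 0.090 in 2i (0.0035 to 0.18) and -0.12 with vitC (-0.21 to -0.03). The levels at 32 hr were alike, 145 CPM in 2i and 146 CPM with vitC. The opposite signs at 32 hr thus came from the 4 hr references, 136 CPM in 2i and 159 CPM with vitC. With 1 library per combination the difference at a single time was not tested, and the linear change of the vitC effect with hours did not pass (unadjusted p = 0.94, edgeR). The first value rests on the 16 hr library in 2i, with 215 CPM against 135 to 159 CPM in the other 7.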

How the results depend on the processing

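All results rest on 1 library per combination, and the p-values measure only departure from additivity, which may be technical. The labels give no replicate numbers, so the only pairing was by time, which served as the block for vitC. From 4 to 24 hr, 3061 genes were called, 1894 after thinning, 1889 without the treatment term, 748 to 3341 with a library or a time pair left out (748 without the vitC 24 hr library, 1015 without vitC 4 hr, 1491 without 2i 24 hr), and 0 with the share of the 3 abundant features as a covariate (1415 unadjusted). Of the 10 genes, 9 were called, 6 to 9 with a library or a time pair left out (6 without the vitC 4 hr library), 7 to 9 in the remaining alternatives, and 0 with that covariate. The covariate changed along with time between 4 and 24 hr, so calls lost under it cannot separate the share from time. Scd1, Scd2, Fads1, Fads2, Elovl6, and Acly lost their call under that covariate alone, with log2 fold changes of 2.47, 1.19, 1.77, 2.45, 1.25, and 0.69 there. Elovl5 turned to 0.98 with the covariate, 0.034 with the GC and length correction, 0.13 without the 2i 24 hr library, and 0.15 without the vitC 4 hr library (-0.19 to 0.15 with a library or a time pair left out), and was not called in any of them; the cause was not tested.

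From 16 to 32 hr, 87 genes were called, 239 in DESeq2, 589 without a filter, 19 after thinning, 11 without the treatment term, and 2 to 140 with a library or a time pair left out (2 without 2i 32 hr, 8 without vitC 32 hr, 10 without 2i 16 hr). Of the 10 genes, DESeq2 and the fit without a filter each called 1, Scd2. For vitC, 25 genes were called, 299 in DESeq2, 54 with library totals, 690 without a filter, 13 at 5 CPM, 96 after thinning, 60 with the 3 features removed, 4 with their share as a covariate, 0 without the time block, and 0 to 458 with a library or a time pair left out (458 without vitC 4 hr, 420 without 2i 4 hr, 0 without either 32 hr library). The change with hours called 0 genes, 1 in DESeq2, 5 without a filter, and 0 to 25 with a library or a time pair left out (25 without 2i 32 hr). None of the 10 genes was called for vitC or its change with hours in any alternative. The vitC 24 hr library, with 4753528 counts, was the shallowest; there 3 counts came to 0.631 CPM.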

Other observations

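Genes of fatty acid uptake, breakdown, and mitochondrial synthesis were also read from 4 to 24 hr. Of 9 uptake and binding genes tested, 4 were higher and 1 lower in edgeR (median log2 fold change 0.23), where 11.5% of all genes were higher and 8.98% lower. Vldlr, a receptor for lipoproteins rich in triglyceride, rose from 4.13 and 5.89 CPM at 4 hr to 9.65 to 36.9 CPM later (log2 fold change 2.04, SE 0.33, edgeR adjusted p = 0.0015). Slc27a2, a very long chain acyl-CoA synthetase and transporter, fell from 9.10 and 11.3 CPM to 3.43 to 5.25 CPM (log2 fold change -1.38, SE 0.31, edgeR adjusted p = 0.0095). Of 23 oxidation genes 2 were higher, a share near that of all genes, and 0 lower (median 0.22), with Cpt1a, the entry enzyme of mitochondrial oxidation, going from 39.2 and 39.3 CPM to 85.6 to 116 CPM (log2 fold change 1.42, SE 0.14, edgeR adjusted p = 8.6e-05). Of 7 LXR receptors and targets 1 was higher, also near that share. This was Lpcat3 (0.84, SE 0.17, edgeR adjusted p = 0.0049), which places polyunsaturated chains in phospholipids. Of 6 genes of mitochondrial fatty acid synthesis 0 were called in edgeR (median -0.31).

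The genes whose log2 CPM followed the mean of the 10 most closely over the 8 libraries, among 3581 with a range of at least 1 log2 unit, were Fdft1 (squalene synthase, Pearson r = 0.992), Ccdc80 (0.991), Nrep (0.990), Mfsd13a (0.990), and Irf2bpl (0.988). These correlations are a description over libraries that share a step between 4 hr and the later times. Fdft1 had 61.9 and 62.8 CPM at 4 hr and 121 to 148 CPM later.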
